A study of Homo sapiens with 4 samples.

Results

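Some of the longest mRNAs of a human cell encode giant proteins of the cytoskeleton, the adhesion sites, the nucleus and the ubiquitin system. The 9 described here were chosen by gene name as a view of how transcript length bears on RNA immunoprecipitation sequencing (RIP-seq), namely AHNAK, PLEC, MACF1, SPTAN1, FLNA, TLN1, MYH9, PRKDC and HUWE1. Each was listed among 13300 gene names, with 63 of 34975 listed transcripts. RIP-seq recovers the RNA that comes down with an antibody from a cell lysate. The study asked which mRNAs are bound by KIAA1429, and compared 2 libraries precipitated with an antibody against KIAA1429 (KIAA1429 RIP) with 2 precipitated with normal IgG (IgG RIP). All 4 libraries came from HCCLM3, an established human hepatocellular carcinoma cell line, with no treatment or genetic change named in the labels. The labels do not say whether the replicates were separate cultures, so the spread between them may be technical. The values are FPKM, a fragment count scaled to the length of the transcript and to the mapped fragments of the library, and the depth behind them is unknown. Without an input library, the amount of an RNA in the lysate and the share of it that was precipitated cannot be told apart.

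KIAA1429, also called VIRMA, is a large scaffold subunit of the complex that writes m6A, the methyl mark on adenosines of mRNA. The mark is placed within a short sequence context whose most common core is GGAC, and it is known to be frequent in long internal exons and near stop codons. Giant mRNAs offer many such sites. They are also the RNAs most easily broken in a lysate, and poly(A) selection keeps the 3′ part of a broken molecule. The proteins act in different places. FLNA (filamin A) crosslinks actin filaments, SPTAN1 (spectrin alpha chain) builds the membrane skeleton, and PLEC (plectin) and MACF1 are plakins that tie filament systems together. MYH9 is the heavy chain of non-muscle myosin IIA, TLN1 (talin 1) links integrins to actin, and AHNAK is a giant membrane-associated scaffold. PRKDC is the catalytic subunit of the DNA-dependent protein kinase, and HUWE1 is a HECT-type ubiquitin ligase.

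The libraries were alike in most respects. Across gene totals, which are the sums of the listed transcripts of a gene, replicates correlated with a Spearman's rho of 0.849 in IgG RIP and 0.872 in KIAA1429 RIP, and libraries of different groups with 0.833 to 0.885. Replicates of a group were thus no closer to each other than some libraries of different groups. The hepatocyte and epithelial markers listed were 8, among them ALB at a mean of 66.2 FPKM, SERPINA1 at 63.7 FPKM and EPCAM at 2.04 FPKM, while CDH1, the epithelial cadherin, was not listed. Of 12 markers of blood, stromal and endothelial cells only CD68 (44.8 FPKM) and LYZ (14.4 FPKM) were listed, with a summed level of 38.6 to 87.0 FPKM per library. The median log2 ratio of KIAA1429 RIP to IgG RIP was 0.02 over the 7 hepatocyte and epithelial markers tested. Their ratios ran from APOA2 at -0.82 to EPCAM at 0.80. The summed level of that list ran from 264 to 324 FPKM in the 4 libraries.

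None of the 9 mRNAs passed limma's test of KIAA1429 RIP against IgG RIP on gene totals. A call needed a log2 fold change beyond 1 and a Benjamini-Hochberg adjusted p under 0.05 over the 11361 gene totals with a mean of at least 1 FPKM. By this rule 0% of all gene totals were called in either direction, and 0 of 9 members. The adjusted p was 0.997 for each member, and the unadjusted p ran from 0.268 for SPTAN1 to 0.823 for AHNAK, while 4.59% of all gene totals had an unadjusted p under 0.05. A p that misses the threshold does not show that the levels were equal, and the 95% intervals below give what the data allow. With 2 libraries against 2, the smallest p that exact permutation of one gene's values can give is 0.333.

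As a group, the members lay slightly lower in KIAA1429 RIP. The log2 ratio of group means was below 0 for 8 of 9 members with a median of -0.24, against 49.4% of all gene totals below 0 and a median of 0.01. The ranges of the groups did not overlap for 3 members, PLEC, SPTAN1 and HUWE1, each lower in KIAA1429 RIP. Over all gene totals this was so for 15.2% in the lower direction and 16.6% in the higher direction, in which there was no member. No member's group means were 2-fold apart, which held for 7.58% of all gene totals in the higher and 6.14% in the lower direction. Between libraries of the same number, the member median was -0.19 for replicate 1 with 8 of 9 below 0 (all gene totals -0.04), and -0.25 for replicate 2 with 7 of 9 below 0 (all gene totals 0.07). The size of the lean moved with the library left out. Without KIAA1429 RIP replicate 2 the member median was 0.01 and 4 of 9 ratios were below 0 (all gene totals 0.03), and without IgG RIP replicate 1 it was -0.09 with 5 of 9 below 0 (all gene totals 0.11). Without IgG RIP replicate 2 it was -0.48 with 8 of 9 below 0 (all gene totals -0.06), and without KIAA1429 RIP replicate 1 it was -0.38 with 9 of 9 (all gene totals -0.04). The member median was thus below that of all gene totals in each case, by least without KIAA1429 RIP replicate 2. The difference between replicates was of the same size as that between groups. The median log2 ratio of the members was -0.40 for IgG RIP replicate 2 over replicate 1 (all gene totals -0.16) and -0.27 for KIAA1429 RIP replicate 2 over replicate 1 (all gene totals -0.06).

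**Figure D1:**
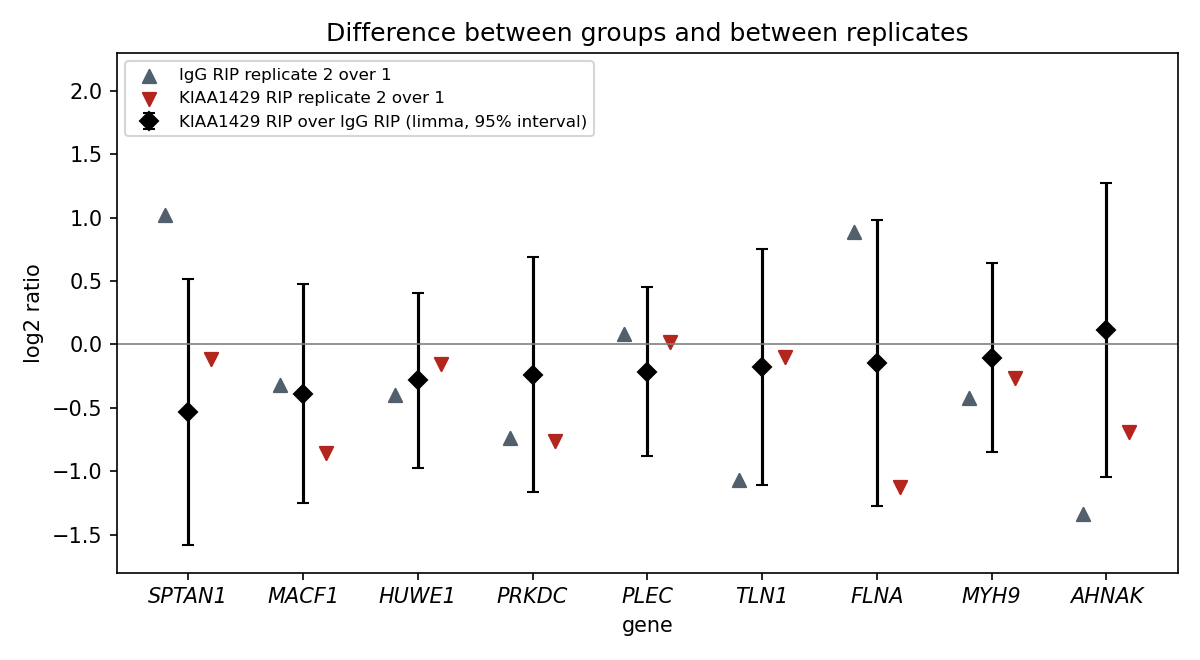
For each of the 9 mRNAs (x axis, ordered by log2 fold change), black diamonds give limma's log2 fold change of KIAA1429 RIP over IgG RIP on log2(FPKM + 1) gene totals with its 95% interval, and triangles give the log2 ratio of replicate 2 over replicate 1 within IgG RIP (grey, up) and within KIAA1429 RIP (red, down). Every interval spans 0, and for each gene but PLEC at least 1 of the replicate differences is larger in size than the group difference.

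The ratio of the groups fell with transcript length across all genes. For 10191 gene totals above 0 in every library, each gene was placed in 1 of 10 bins of equal size by spliced length. The length is that of its longest listed transcript with a length used, as set out under processing. The median log2 ratio of the groups was 0.33 in the bin of 66 to 1221 bases and fell to -0.13 in the bin of 7352 to 34626 bases, which holds all 9 members. The other 1010 genes of that bin had a median of -0.13 with 63.9% below 0. The members thus had the sign shown by most long mRNAs. Spearman's rho of ratio and length across the 10191 genes was -0.220, a description only, since genes share libraries and depth. With the lengths of all annotated transcripts the rho was -0.221.

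A length trend was also present between replicates of the same antibody. From the shortest to the longest bin the median log2 ratio fell by 0.46 between the groups. Between the IgG RIP replicates, where no KIAA1429 antibody was used, it fell by 0.54, from 0.19 to -0.36 for replicate 2 over replicate 1. Between the KIAA1429 RIP replicates it changed little, from -0.02 to -0.11. The pairs of libraries differed in step with IgG RIP replicate 1. The fall from the shortest to the longest bin was steep where that library was the denominator, from 0.43 to -0.26 for KIAA1429 RIP replicate 1 and from 0.42 to -0.37 for KIAA1429 RIP replicate 2. Against IgG RIP replicate 2 it was shallow, from 0.24 to 0.10 for KIAA1429 RIP replicate 1 and from 0.21 to -0.01 for KIAA1429 RIP replicate 2. Without IgG RIP replicate 1 the rho of the group ratio with length was -0.0611, and without each other library in turn it lay between -0.294 and -0.153. These comparisons share libraries and are given side by side.

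**Figure D2:**
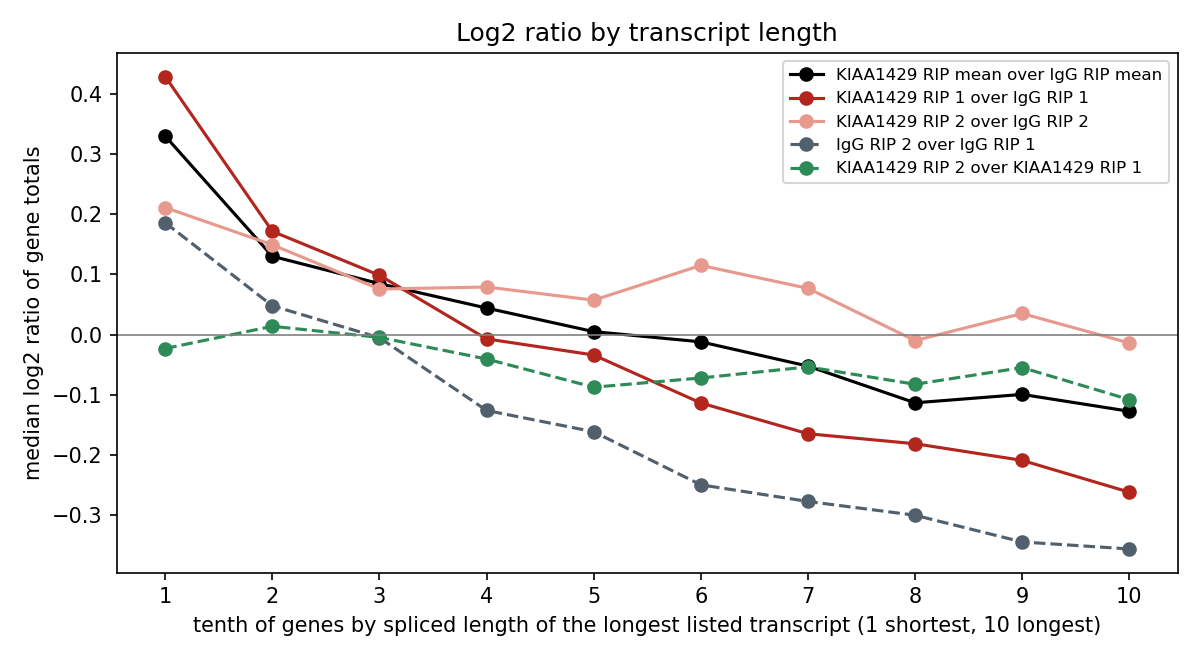
Median log2 ratio of gene totals (y axis) in 10 equal bins of genes (x axis). Genes are binned by spliced length of the longest listed transcript with a length used. Bin 1 is of 66 to 1221 bases, and bin 10 of 7352 to 34626 bases with all 9 members. Solid lines give KIAA1429 RIP over IgG RIP by group means and by replicate. Dashed lines give replicate 2 over replicate 1 within each group. The line between the 2 IgG RIP replicates falls from 0.19 to -0.36, as steeply as the line between the groups, which falls from 0.33 to -0.13.

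On the FPKM scale, which divides by length, the members were mostly abundant. MYH9 ranked 168th of 11361 gene totals by mean FPKM, followed by FLNA (194), AHNAK (230), MACF1 (322), HUWE1 (503), TLN1 (887), PRKDC (1121), PLEC (1435) and SPTAN1 (5142). Of the 8 neighbouring pairs in this order 7 overlapped in their ranges over the 4 libraries. PLEC and SPTAN1 were the exception, with SPTAN1 below PLEC in each library. The 9 genes held 0.212% to 0.376% of the FPKM sum of a library, and 1.11% to 1.73% of the sum once FPKM was multiplied by length, which approximates the share of fragments. Both shares were higher in replicate 1 than in replicate 2 of each group, with 1.72% and 1.11% in IgG RIP against 1.73% and 1.13% in KIAA1429 RIP for the length-weighted share. In IgG RIP the fall of the length-weighted share was carried by AHNAK, at 0.646% and 0.0321%. PLEC, SPTAN1 and FLNA rose there, FLNA from 0.0940% to 0.292%. In KIAA1429 RIP the length-weighted share of each member was lower in replicate 2.

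**Figure D3:**
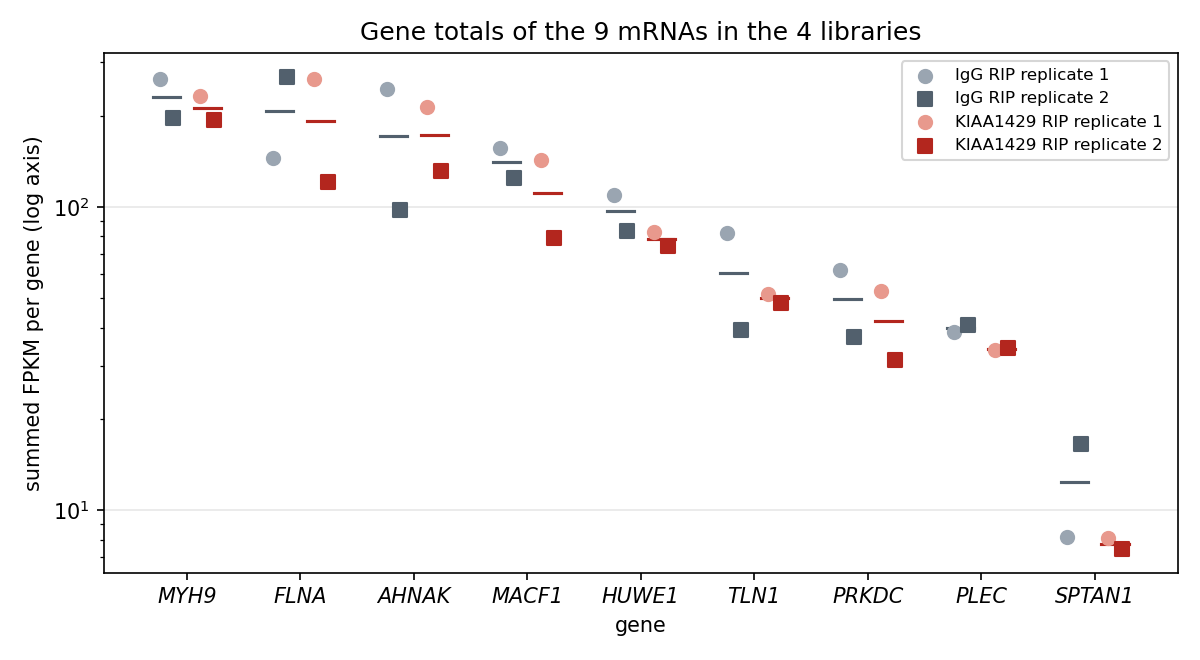
Summed FPKM per gene (log y axis) of the 9 mRNAs (x axis, ordered by mean level) in IgG RIP replicates 1 and 2 (light and dark grey) and KIAA1429 RIP replicates 1 and 2 (light and dark red). Horizontal lines mark group means, and only PLEC, SPTAN1 and HUWE1 have groups that do not overlap.

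MYH9 (chr22:36677327-36784063 of GRCh37, minus strand) was the most abundant member and among the steadiest. Its gene total was 264 and 197 FPKM in IgG RIP replicates 1 and 2, and 232 and 193 FPKM in KIAA1429 RIP replicates 1 and 2. The groups overlapped. Limma gave a log2 fold change of -0.10 with an SE of 0.32 and a 95% interval of -0.85 to 0.64. Nearly all of it was 1 transcript, MYH9-201 (ENST00000216181, 7451 bases in 41 exons), which held 97.6% to 99.8% of the FPKM in listed MYH9 transcripts with a length. Its levels were 260 and 192 FPKM in IgG RIP against 232 and 192 FPKM in KIAA1429 RIP. The other 3 listed transcripts are short, and each stayed under 5 FPKM.

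TLN1 (chr9:35696945-35732392, minus strand) was also held by 1 transcript, TLN1-201 (ENST00000314888, 8623 bases), with 95.4% to 97.6% of the FPKM. Its gene total was 82.3 and 39.2 FPKM in IgG RIP against 51.8 and 48.3 FPKM in KIAA1429 RIP. The IgG RIP libraries lay on either side of the KIAA1429 RIP libraries, so the spread within IgG RIP (SD 30.5 around a mean of 60.7 FPKM, n = 2) exceeded the difference of 10.6 FPKM between the group means. Limma's log2 fold change was -0.18 with an SE of 0.39. Without IgG RIP replicate 1 its sign turned, to 0.35.

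FLNA (chrX:153576894-153603006, minus strand) had gene totals of 145 and 269 FPKM in IgG RIP against 264 and 121 FPKM in KIAA1429 RIP. A high and a low library stood in each group, and the replicate numbers ran in opposite directions. Between the groups the log2 fold change was -0.15 with an SE of 0.48 and a 95% interval of -1.27 to 0.98. Larger differences appeared between its transcripts. FLNA-204 (ENST00000369856, 8240 bases) stood at 25.0 and 107 FPKM in IgG RIP, and at 198 and 23.0 FPKM in KIAA1429 RIP. FLNA-202 (ENST00000360319, 8278 bases) stood at 24.8 and 59.4 FPKM in IgG RIP, and at 10.3 and 23.4 FPKM in KIAA1429 RIP. FLNA-207 (ENST00000422373, given no length here) followed it closely, at 26.5, 59.1, 10.8 and 24.3 FPKM in the same order. FLNA-202 and FLNA-207 were lower in KIAA1429 RIP with no overlap of the groups, while FLNA-204 was highest in 1 library of KIAA1429 RIP and lowest in the other.

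FLNA-204 and FLNA-202 were level in IgG RIP replicate 1 and KIAA1429 RIP replicate 2, and lay far apart in KIAA1429 RIP replicate 1. They are almost the same molecule. FLNA-204 and FLNA-202 share 8216 bases. The bases that FLNA-204 has and FLNA-202 lacks are a single coding exon of 24 bases at chrX:153585619-153585642. FLNA-203 (ENST00000369850) has this exon too, and shares 8239 bases with FLNA-204. The exon is shown because it is all that FLNA-204 has beside the bases shared with FLNA-202. The 3 bases of the flanking exons on each side are in lower case and the exon is in capitals, 5′ to 3′ on the minus strand of GRCh37.
FLNA exon: cagTGTCAATCGGAGGTCACGGGCTAGgtg
FLNA-202 in turn has 62 bases that FLNA-204 lacks. Values of single FLNA transcripts are therefore to be read with caution, and their uncertainty was not tested. The gene total varied too, from 121 to 269 FPKM, though less than FLNA-204, which ran from 23.0 to 198 FPKM.

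AHNAK (chr11:62201018-62323707, minus strand) had the widest spread of the gene totals. They were 246 and 97.5 FPKM in IgG RIP against 213 and 132 FPKM in KIAA1429 RIP, with the highest 2.52-fold above the lowest. Both the highest and the lowest library were IgG RIP. The group means were 172 ± 105 and 173 ± 57.5 FPKM (SD, n = 2), and the log2 fold change was 0.11 with an SE of 0.49 and a 95% interval of -1.04 to 1.27. Its sign depended on the library left out, with -0.55 without IgG RIP replicate 2 and 0.78 without IgG RIP replicate 1.

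AHNAK is annotated with a giant coding transcript and a set of short ones, and the libraries differed in which of these they showed. AHNAK-202 (ENST00000378024, 18761 bases in 5 exons, coding sequence of 17673 bases) has a last exon of 18173 bases, 96.9% of its length. It stood at 223 FPKM in IgG RIP replicate 1, and at 195 and 126 FPKM in replicates 1 and 2 of KIAA1429 RIP. In IgG RIP replicate 2 it was 5.83 FPKM, 38.3-fold below the highest library. That library instead listed AHNAK-203 (ENST00000525875, a non-coding processed transcript of 793 bases) at 66.0 FPKM, which was listed at 0 in each of the others. AHNAK-201 (ENST00000257247, 1024 bases) was at 21.7 FPKM there and at 0 to 6.80 FPKM in the others. Transcripts of at least 5000 bases held 90.8%, 91.6% and 95.4% of the AHNAK FPKM in the other libraries, and 5.98% in IgG RIP replicate 2. The limma log2 fold change of AHNAK-202 was 2.01 with an SE of 1.67 and an adjusted p of 0.879.

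The sequences show where the long AHNAK-202 and the short AHNAK-201 part. Both leave the same exon, whose last 15 bases are in lower case, and enter different ones, whose first 15 bases are in capitals. AHNAK-202 enters the giant exon at chr11:62301532-62301546, and AHNAK-201 enters a small exon at chr11:62259289-62259303. AHNAK-203, at chr11:62201019-62284829, does not reach the exon that these leave, and shares 348 bases with AHNAK-202.
AHNAK-202 junction: tctgaagtggttctgAGCGGGGATGATGAG
AHNAK-201 junction: tctgaagtggttctgAACACACCACAGCCA
The giant exon is repetitive. The 24-base run with the most copies in AHNAK-202 occurs 12 times between bases 2854 and 14563, and the most frequent run that contains GGAC (in capitals) occurs 8 times between bases 2695 and 6592. They are shown as examples of the repeats, and how reads from them were placed was not tested.
AHNAK repeat: ggcccagactggcacctgaagatg
AHNAK repeat with GGAC: aagatctccatgcctgatgtGGAC

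MACF1 (chr1:39549804-39952849, plus strand) had gene totals of 156 and 125 FPKM in IgG RIP against 143 and 79.1 FPKM in KIAA1429 RIP. The groups overlapped, with KIAA1429 RIP replicate 2 lowest. Its log2 fold change was -0.39 with an SE of 0.37 and a 95% interval of -1.25 to 0.48, and it was 0.04 without KIAA1429 RIP replicate 2. MACF1 has the most listed transcripts of the 9 genes, 22, and none held 20% of the total in either group. Of these, 6 have at least 5000 bases and 13 fewer. The long ones held 50.9%, 52.1%, 52.1% and 63.5% of the FPKM in IgG RIP replicates 1 and 2 and KIAA1429 RIP replicates 1 and 2. The longest, MACF1-231 (ENST00000564288, 24340 bases), was at 3.99 and 19.6 FPKM in IgG RIP, and at 17.6 and 14.8 FPKM in KIAA1429 RIP. A short coding transcript, MACF1-222 (ENST00000494012, 667 bases), was at 16.2 and 7.61 FPKM in IgG RIP, and at 0.645 and 1.25 FPKM in KIAA1429 RIP. It was the 1 member transcript with an unadjusted p under 0.05 (adjusted p = 0.716 by limma, log2 fold change -2.66 with an SE of 0.60), and it was chosen for mention after its values were seen.

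PLEC (chr8:144989315-145050902, minus strand) had the smallest spread. Its gene totals were 38.6 and 41.0 FPKM in IgG RIP against 33.8 and 34.3 FPKM in KIAA1429 RIP. Both KIAA1429 RIP libraries were below both IgG RIP libraries, with SDs of 1.67 and 0.363 FPKM (n = 2) around means of 39.8 and 34.1 FPKM. The log2 fold change was small, -0.22 with an SE of 0.28 and a 95% interval of -0.88 to 0.45. It stayed between -0.26 and -0.17 whichever library was left out. Its most abundant transcript was PLEC-210 (ENST00000527096, 13713 bases), at 15.7 and 19.7 FPKM in IgG RIP and at 13.9 and 16.1 FPKM in KIAA1429 RIP, where the groups overlapped. All 6 listed PLEC transcripts with a length used have more than 5000 bases.

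SPTAN1 (chr9:131314837-131395941, plus strand) was the least abundant, with 1 listed transcript, SPTAN1-202 (ENST00000372731, 7889 bases). It was at 8.15 and 16.6 FPKM in IgG RIP, and at 8.08 and 7.45 FPKM in KIAA1429 RIP. IgG RIP replicate 2 stood above the other 3 libraries, which lay close together. The log2 fold change of -0.53 (SE 0.44, 95% interval -1.58 to 0.52) was the lowest of the members. It was -0.06 without IgG RIP replicate 2.

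PRKDC (chr8:48685669-48872743, minus strand) had gene totals of 62.0 and 37.1 FPKM in IgG RIP against 52.8 and 31.2 FPKM in KIAA1429 RIP. Replicate 1 was higher in both groups, and the groups overlapped. The log2 fold change was -0.24 with an SE of 0.39 and a 95% interval of -1.17 to 0.69. PRKDC-201 (ENST00000314191, 13458 bases) was at 62.0 and 19.7 FPKM in IgG RIP, and at 50.6 and 31.2 FPKM in KIAA1429 RIP. IgG RIP replicate 2 also listed PRKDC-202 (ENST00000338368), with which PRKDC-201 shares 12741 bases, at 14.8 FPKM, against 0 in each other library.

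HUWE1 (chrX:53559057-53713674, minus strand) was lower in both KIAA1429 RIP libraries, narrowly. Its gene totals were 110.0 and 83.6 FPKM in IgG RIP against 83.0 and 74.4 FPKM in KIAA1429 RIP. IgG RIP replicate 2 and KIAA1429 RIP replicate 1 were almost level. The log2 fold change was -0.28 with an SE of 0.29 and a 95% interval of -0.98 to 0.41, and -0.09 without IgG RIP replicate 1. The full-length transcripts HUWE1-203 and HUWE1-214 changed places between libraries. HUWE1-203 (ENST00000342160, 14796 bases) was at 14.9 and 39.8 FPKM in IgG RIP, and at 43.2 and 20.1 FPKM in KIAA1429 RIP. HUWE1-214 (ENST00000612484, 14311 bases) was at 40.6 and 0 FPKM in IgG RIP, and at 1.64 and 10.7 FPKM in KIAA1429 RIP. Where HUWE1-203 was high HUWE1-214 was low. HUWE1-202 (ENST00000262854, 14720 bases) was at 19.6 and 0.450 FPKM in IgG RIP, and at 1.20 and 1.15 FPKM in KIAA1429 RIP. In IgG RIP replicate 1 it thus stood above HUWE1-203.

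All 14311 bases of HUWE1-214 are also in HUWE1-203, and in the coding sequence of HUWE1-203 they differ by 27 bases at the end of an exon, chrX:53629525-53629551. These bases are in capitals, with the 3 before them in lower case, 5′ to 3′ on the minus strand.
HUWE1 exon end: cagGTACGACCCAGGGCGGAAAAAGATCAG
A pair of shorter coding transcripts was separated between the groups in opposite directions. HUWE1-204 (ENST00000426907, 4805 bases) was at 5.51 and 16.3 FPKM in IgG RIP, and at 20.2 and 22.3 FPKM in KIAA1429 RIP. HUWE1-215 (ENST00000622887, 673 bases) was at 22.7 and 25.2 FPKM in IgG RIP, and at 13.0 and 20.2 FPKM in KIAA1429 RIP.

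Over the transcripts taken apart, as over gene totals, no member was called. Of the 63 member transcripts, 52 had a mean of at least 1 FPKM and were tested, and 0 were called, as were 0% of 23375 transcripts tested. Among the 52, 6 had a log2 fold change above 1 and 13 below -1, against 16.6% and 15.9% of all transcripts tested. Just 1 had an unadjusted p under 0.05, against 5.36% of all, and limma's adjusted p ran from 0.716 to 1.00. The groups did not overlap for 3 of the 52 in the higher and 13 of the 52 in the lower direction, against 15.2% and 14.5% of all transcripts tested. Most of the lower ones belonged to 2 genes. Over all 63 listed, MACF1 had 7 lower and 1 higher, and FLNA had 4 lower and 0 higher. Of the 63, 27 were listed at 0 in at least 1 library.

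Transcripts of at least 5000 bases held 84.2% and 75.3% of the members' FPKM in IgG RIP against 85.5% and 86.4% in KIAA1429 RIP, over the 57 transcripts with a length used. The mean was 79.7% ± 6.35 in IgG RIP and 86.0% ± 0.637 in KIAA1429 RIP (SD, n = 2). The difference of 6.24 percentage points was within the spread of IgG RIP, and it was carried by AHNAK. With AHNAK left out, the shares were 82.3% and 84.3% in IgG RIP against 84.0% and 84.2% in KIAA1429 RIP, a difference of 0.822 points. Without IgG RIP replicate 2 the difference over all members was 1.75 points.

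Other giant mRNAs leaned the same way, and their shorter partners did not. Among 34 tested mRNAs of other giant proteins, 29 had a log2 ratio below 0 and 5 above, with a median of -0.21. The lowest was VPS13A, a lipid transfer protein, at -1.32 (5.01 and 4.73 FPKM in IgG RIP against 2.49 and 1.41 FPKM in KIAA1429 RIP). The highest was CENPE, a kinetochore kinesin, at 1.27 (2.97 and 0.622 FPKM in IgG RIP against 6.90 and 1.77 FPKM in KIAA1429 RIP). The 10 other giant ubiquitin ligases had a median of -0.26 with 8 below 0, from MYCBP2 at -0.75 to HERC2 at 0.11. The 5 other giant kinases of the family of PRKDC had a median of -0.27 with 4 below 0, from TRRAP, a scaffold of that family without kinase activity, at -0.47 to MTOR at 0.05. These lists were also low in replicate 2 over replicate 1 of IgG RIP, with median log2 ratios of -0.26, -0.54 and -0.26. No gene of these lists was called, as 0% of all gene totals.

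The 9 listed relatives of the members, of 12 named, had a median log2 ratio of -0.19, with 6 below 0. The lowest was AHNAK2, a second giant scaffold, at -1.31. It was at 46.5 and 27.0 FPKM in IgG RIP, and at 13.1 and 16.5 FPKM in KIAA1429 RIP, so that both KIAA1429 RIP libraries were lower. Its unadjusted p was 0.0140 and its adjusted p 0.993 by limma. The highest was DST, a plakin, at 0.21. AHNAK2 and AHNAK thus lay apart, with log2 ratios of gene totals of -1.31 and 0.01, and the difference between them was not tested. The AHNAK total in IgG RIP replicate 2 was mostly short transcripts, and the giant AHNAK-202 had a log2 ratio of 0.49.

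The 20 actin and adhesion partners, with a median length of 2242 bases, had a median log2 ratio of 0.17, with 13 above 0 and 7 below. The highest was MYL9, a regulatory light chain of the same myosin as MYH9, at 1.27. It was at 18.6 and 25.8 FPKM in IgG RIP, and at 67.5 and 39.5 FPKM in KIAA1429 RIP, with both KIAA1429 RIP libraries higher (adjusted p = 0.993 by limma). The heavy chain mRNA MYH9 stood at -0.11 on the same scale. The lowest was ACTB, beta-actin, at -0.86. It was at 555 and 403 FPKM in IgG RIP, and at 304 and 224 FPKM in KIAA1429 RIP, with both KIAA1429 RIP libraries lower (adjusted p = 0.997 by limma). ACTB has near-identical copies in the genome, and their bearing on these values was not tested. The 7 DNA end-joining partners of PRKDC had a median of 0.24, with 4 above 0 and 3 below, from DCLRE1C, the nuclease Artemis, at -1.09 to NHEJ1, an end-joining factor, at 1.22. NHEJ1 was listed at 0 in IgG RIP replicate 2 and at 10.9 to 13.5 FPKM elsewhere. No gene of these 3 lists was called.

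Besides length, the members varied in their sequence features. The median length of their longest listed coding transcript with a length used was 13458 bases, against 3229 over 10308 genes. The median coding sequence was 12386 against 1322 bases. The median number of exons was 56 against 9, from 5 in AHNAK to 101 in MACF1. The 3′ untranslated regions were not long, with a median of 1024 against 1253 bases. GGAC, read on the transcript strand, occurred 42 times in PRKDC to 132 times in AHNAK, against a median of 12 over all genes, of which 99.3% had at least 1. Per kilobase of coding sequence, the member median was 6.47 against 4.59. It was high in FLNA (7.93), AHNAK (7.41) and MYH9 (7.31), and below the median of all genes in HUWE1 (4.57), PRKDC (3.39) and MACF1 (3.35). Across 10308 genes, Spearman's rho of the log2 ratio with GGAC per kilobase was -0.0829, a description with no test. A match of 4 letters is no measured m6A site.

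Long exons set AHNAK, PLEC and MACF1 apart from the rest. The longest exon was 18173 bases in AHNAK, 7243 in PLEC and 5451 in MACF1, and 454 bases (SPTAN1) to 1506 bases (MYH9) in the others. The member median of 1316 was below that of all genes, 1620 bases. The log2 ratios of PLEC and MACF1, at -0.22 and -0.34, lay within the range of the other 6 members, -0.67 to -0.11, and that of AHNAK, at 0.01, lay above it.

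The mean profile of the 9 mRNAs over the libraries, as log2(FPKM + 1) centred for each gene, was 0.24 and -0.02 in IgG RIP against 0.11 and -0.33 in KIAA1429 RIP. Among 2754 other gene totals with a mean of at least 20 FPKM, the nearest by root mean square difference over the 4 libraries were MICAL3 (0.0280), CRK (0.0311) and CCAR2 (0.0333). MICAL3 stood at 28.5 and 23.9 FPKM in IgG RIP, and at 25.1 and 19.2 FPKM in KIAA1429 RIP. With 4 points and so many candidates, a close match says little about any of these genes.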

How the data were processed

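The 4 RIP-seq libraries of HCCLM3 cells were grouped by GEO's labels, 2 per antibody. The authors aligned reads to GRCh37/hg19 with HISAT2 and deposited FPKM per transcript; the submitters' processing notes also name Bowtie2 2.1.0. The tool and annotation release behind the FPKM values are not given in the sources used here. No reads could be recovered from FPKM, so no counting error is given. The same transcripts are listed in each library, and gene totals are sums of them.

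On log2(FPKM + 1) values, limma 3.58.1 was run in R 4.3.3 (lmFit, eBayes with trend, two-sided, Benjamini-Hochberg over all features with a mean of at least 1 FPKM). A log2 fold change is on that scale and understates changes of low genes, and a log2 ratio is that of group means in FPKM. Spliced lengths and sequences came from the GENCODE annotation of GRCh37 and its genome. A length was used for 31761 of 34975 transcripts, those whose ends lie within 1000 bases of the deposited locus. Python 3.11.15 with pandas 2.3.3, numpy 2.4.6 and scipy 1.17.1 was used for the rest. The limma step was tested on simulated data in which 200 gene totals were raised. Of these, 0 were recovered by the rule for a call at a log2 effect of 1, 0 at 2 and 192 at 4.

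The members and lists were chosen with earlier results of these data known. Named were all members, the highest and lowest ratio of each list, member transcripts with at least 20% of their gene total in either group and the 3 nearest profiles; AHNAK-201, AHNAK-203, PRKDC-202, MACF1-222 and MACF1-231 were added after their values were seen. Alternatives were other pseudocounts, filters, scalings and length limits, the replicate block, no variance trend and each library left out.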

Additional observations from a re-analysis of the deposited data

How the results depend on the processing

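No gene total or transcript was called by limma under other pseudocounts, filters or scalings, without the variance trend, or without any 1 library. With the replicate number as a block, 13 gene totals were called (12 higher, 1 lower), none of them a member (member adjusted p from 0.767 to 0.977), and 0 transcripts. The labels give both groups the numbers 1 and 2 and nothing more. The deviations of same-numbered libraries from their group means correlated at 0.187 over gene totals and 0.0299 over transcripts, and with 2 pairs it cannot be decided whether same-numbered libraries share more than a number. The block left the member fold changes as they were, and gave a member median of -0.22. Counting gene totals at least 2-fold apart without overlap gives 1079, chosen after seeing the data.

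The member median log2 ratio of -0.24 became -0.35 after quantile normalization (all gene totals -0.04) and -0.091 for the most abundant transcript of each gene (5 of 9 below 0), and ranged from -0.48 to 0.014 with 1 library left out. The long-transcript share differed by 6.24 points, by 0.822 without AHNAK and by 1.75 to 10.7 with 1 library left out. The length trend had a rho of -0.294 to -0.0611 with 1 library left out.

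Of 108 member fold changes under alternatives, 11 turned sign, 10 of them with a library left out. AHNAK was -0.084 after quantile normalization, -0.55 without IgG RIP replicate 2 and -0.23 without KIAA1429 RIP replicate 1, and 0.78 at its highest. With 1 library left out, the ranges were -0.81 to 0.035 for MACF1, -0.70 to 0.41 for FLNA (0.30 without IgG RIP replicate 2), -0.71 to 0.35 for TLN1, -0.31 to 0.11 for MYH9 (0.03 without KIAA1429 RIP replicate 2) and -0.61 to 0.13 for PRKDC. PLEC, SPTAN1 and HUWE1 kept their sign. Adjusted p for members ran from 0.740 to 1.00 over all alternatives. The causes were not tested. With the depth unknown and 2 libraries a group, differences of the size of the members' were not detectable.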
